A study of Mus musculus with 2 samples.

Results

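Matricellular genes encode secreted proteins of the extracellular matrix that instruct cells more than they hold tissue together, and 10 of them were followed here: Tnc, Postn, Thbs1, Thbs2, Thbs4, Ctgf, Cyr61, Sparc, Mgp and Prg4. They were taken from the count files by symbol, and each matched 1 of the 27998 genes of the count files, where Ctgf and Cyr61 carry older names of the genes now called Ccn2 and Ccn1. Single cells came from the dorsal skin of C57BL/6 wild-type animals aged 2 months, which the labels give as female, in 2 libraries. One came from skin given topical imiquimod (IMQ) daily for 5 days and the other from control skin. IMQ activates a receptor of innate immunity, and its repeated application to mouse skin is a standard model of psoriasis-like inflammation. Both skins were digested with collagenase D and DNase and depleted of dead cells. How many animals contributed to a library is not given in the sources used here.

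Matricellular proteins bind integrins, syndecans, growth factors and collagens. They are typically low in resting adult tissue and made in embryos, healing wounds and tumours, where they alter cell adhesion, migration and the release of stored growth factors. In skin, tenascin C and periostin are known from granulation tissue and the bed of healing wounds, and thrombospondins and CCN proteins from the response of fibroblasts and vessels to injury and stretch.

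After filtering, 8386 IMQ and 9877 control cells remained, and the median depth per cell was 12544 UMIs (unique molecular identifiers, each counted as 1 captured transcript) in the IMQ and 9470 in the control library. A cell was assigned to a lineage by its score for marker genes, which placed 17379 cells. Of these 98.5% had the same lineage when whole clusters of cells were named in place of single cells. Fibroblast-like cells, defined by Pdgfra, collagens, Dcn, Lum and Dpt, numbered 3717 in the IMQ and 6735 in the control library, and all 7 of their markers were detected. The libraries shared 23 barcodes. Levels are given as CPM, the number of a gene's UMIs in every 1000000 UMIs of the class in that library. With 1 library per group there is no measure of the spread between animals, so no test was made. The 95% intervals given with values cover counting error only. A gene was called higher or lower when it had at least 20 UMIs, differed at least 2-fold and had an interval of its ratio that excluded equality. Free RNA in the droplets was estimated to give 1.8% of the library-wide level of a gene in IMQ and 5.82% in control fibroblast-like cells, and a level was read as background in a class unless it reached 3 times that estimate. Genes named as leading a subcluster of cells were chosen after their values were seen.

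In fibroblast-like cells 7 of the 10 genes were called higher in the IMQ library, where 12.7% of the 14561 measured genes were, and 1 gene was called lower, where 4.03% of measured genes were. The median log2 ratio of the 10 was 2.29, against 0.29 over all measured genes. The genes called higher were Tnc, Postn, Thbs1, Thbs4, Ctgf, Mgp and Prg4, the gene called lower was Sparc, and Thbs2 and Cyr61 were neither. The plot of levels in fibroblast-like cells orders the genes by their ratio.

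**Figure D1:**
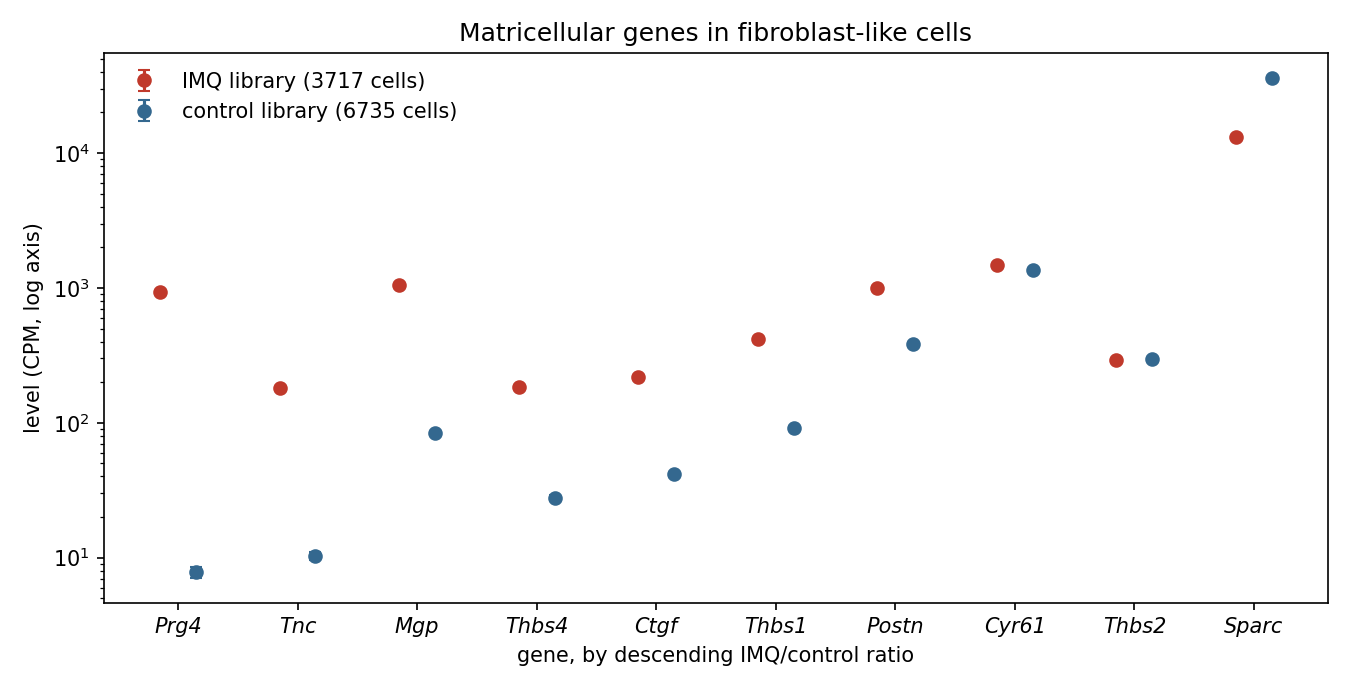
Level (CPM, log axis) of each gene in the 3717 IMQ and 6735 control fibroblast-like cells, with the IMQ library on the left of each pair and exact 95% Poisson intervals, mostly smaller than the points. Prg4, with 932 CPM in the IMQ and 7.76 CPM in the control library, is farthest apart, Thbs2 and Cyr61 are near equal, and Sparc is the gene lower in the IMQ library.

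Tenascin C, a large hexameric glycoprotein that loosens cell adhesion and activates toll-like receptor signalling, is encoded by Tnc (chr4:63959785-64047015 on GRCm38, minus strand, with up to 26 exons in an annotated transcript). In fibroblast-like cells Tnc stood at 180 CPM (177 to 184) in the IMQ and 10.3 CPM (9.57 to 11.1) in the control library, a ratio of 17.5 (16.2 to 18.9). Tnc was also detected in more cells: 25.4% of IMQ and 2.39% of control fibroblast-like cells had a UMI. When each cell was reduced to 3000 UMIs, which left 3501 IMQ and 6173 control cells, the shares were 16.2% and 1.34%. T cells should lack Tnc, and in T cell-like cells (median 4480 UMIs in IMQ, 3471 in control) the share at the same depth was 0.383% of 261 IMQ cells and 0 of 153 control cells, for which the exact binomial interval reaches 2.38%. Of all Tnc UMIs of the control library, 29.2% lay in cells that the markers placed in no lineage. With cells assigned by cluster the log2 ratio of Tnc in fibroblast-like cells was 3.63, in place of 4.13.

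Periostin, which cross-links collagen and binds integrins, is encoded by Postn (chr3:54361109-54391037, plus strand, up to 23 exons). It had 995 CPM (986 to 1003) in IMQ and 381 CPM (376 to 386) in control fibroblast-like cells, 2.61-fold higher (2.57 to 2.65). At 3000 UMIs per cell, 59.3% of IMQ and 36.4% of control fibroblast-like cells had a Postn UMI, against 72.5% and 44.6% at full depth, and T cell-like cells 1.53% and 1.31%. Unlike Tnc, periostin was thus already detected in many control fibroblasts.

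The thrombospondins differed among themselves. Thrombospondin 1 (Thbs1, chr2:118111876-118127133, plus strand, up to 22 exons) inhibits vessel growth through CD36 and CD47 and activates latent TGF-beta, and it had 419 CPM (414 to 425) in IMQ and 91.7 CPM (89.4 to 94.0) in control fibroblast-like cells, a ratio of 4.57 (4.45 to 4.71). Thrombospondin 2 (Thbs2, chr17:14665500-14694235, minus strand, up to 22 exons) is its close relative, which also restrains vessel growth and shapes collagen fibrils. It had 291 CPM (286 to 295) in IMQ and 297 CPM (293 to 301) in control fibroblast-like cells, a ratio of 0.978 (0.957 to 0.998). Thrombospondin 4 (Thbs4, chr13:92751590-92794818, minus strand, up to 22 exons), best known from tendon, muscle and nerve, had 184 CPM (180 to 188) in IMQ and 27.7 CPM (26.4 to 28.9) in control fibroblast-like cells, a ratio of 6.65 (6.33 to 7.0). So 2 of the 3 thrombospondins were called higher and Thbs2 was near equal.

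Thbs4 came from few cells. At 3000 UMIs per cell 5.74% of IMQ and 1.65% of control fibroblast-like cells had a UMI of it (7.75% and 2.38% at full depth), and no T cell-like cell did, with exact binomial intervals that reach 1.4% in IMQ and 2.38% in control. When fibroblast-like cells were clustered without the 10 genes, 1 subcluster of 288 IMQ and 273 control cells held 93.8% of the IMQ and 91.9% of the control Thbs4 UMIs of the class. The genes leading that subcluster were Col8a1, Cilp, Hmcn2, Myoc and Meox1. Within it Thbs4 had 2646 CPM in IMQ and 879 CPM in control cells, a ratio of 3.01 (2.86 to 3.17), and Mgp and Ctgf were also high there in both libraries. Mgp had 5489 CPM in IMQ and 1905 CPM in control cells of the subcluster, and Ctgf 1209 CPM in IMQ and 429 CPM in control cells.

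Both CCN genes are early targets of the YAP and TEAD factors, which respond to stretch and stiffness, but only one was called. Connective tissue growth factor (Ctgf, chr10:24595442-24598683, plus strand, up to 5 exons), a cofactor of TGF-beta in fibrosis, had 218 CPM (214 to 222) in IMQ and 41.4 CPM (39.9 to 43.0) in control fibroblast-like cells, 5.25-fold higher (5.04 to 5.48). Its relative Cyr61 (chr3:145646976-145649981, minus strand, up to 5 exons), a ligand of integrins that promotes adhesion and, in wounds, senescence of fibroblasts, had 1486 CPM (1476 to 1497) in IMQ and 1353 CPM (1344 to 1362) in control cells, a ratio of 1.10 (1.09 to 1.11). The 8 pericyte and smooth muscle markers, a cell type that makes Ctgf, summed to 329 CPM in IMQ and 97.8 CPM in control fibroblast-like cells, with none of them at 0 in either library, while the median over the 8 was 11.2 CPM in IMQ and 14.1 CPM in control cells. Their part in the Ctgf result was not tested. In the subcluster led by Col8a1 and Cilp, which holds 36.3% of the IMQ and 29.9% of the control Ctgf UMIs of the class, Ctgf was 2.82-fold higher (2.62 to 3.04).

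Sparc (chr11:55394500-55423183, minus strand, up to 12 exons) encodes a collagen chaperone, also called osteonectin, that is abundant where matrix is laid down. It had 13199 CPM (13168 to 13229.6) in IMQ and 35989 CPM (35943 to 36034) in control fibroblast-like cells, 2.73-fold lower (2.72 to 2.73). The 7 fibroblast markers, 3 of them collagen genes, summed to 60679 CPM in IMQ and 147823 CPM in control fibroblast-like cells, but their median was 12104 CPM in IMQ and 10781 CPM in control cells. Nearly every fibroblast-like cell had a Sparc UMI, 99.6% in the IMQ and 99.8% in the control library, so the libraries differed in level and hardly in the share of cells with a UMI.

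Matrix Gla protein (Mgp, chr6:136872435-136875823, minus strand, up to 4 exons) inhibits calcification of vessels and cartilage and binds BMPs. It had 1056 CPM (1047 to 1065) in IMQ and 84.3 CPM (82.1 to 86.5) in control fibroblast-like cells, 12.5-fold higher (12.2 to 12.9). At 3000 UMIs per cell 33.0% of IMQ and 7.47% of control cells had a UMI of Mgp, against 42.6% and 10.8% at full depth. T cell-like cells had 0.766% in IMQ and 0.654% in control.

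Lubricin, the mucin-like lubricant of joints and tendon sheaths, is encoded by Prg4 (chr1:150449412-150466165, minus strand, up to 13 exons). Its difference was the largest of the 10 genes in fibroblast-like cells: 932 CPM (924 to 940) in IMQ and 7.76 CPM (7.11 to 8.46) in control cells, a ratio of 120 (110 to 131). At 3000 UMIs per cell it was detected in 55.8% of IMQ and 1.90% of control fibroblast-like cells (68.4% and 4.26% at full depth), and in 1.53% of IMQ and 0.654% of control T cell-like cells with the same thinning. Prg4 overlaps Tpr on the opposite strand, and whether the counting used strand is not given in the sources used here. Tpr itself had 171 CPM in IMQ and 125 CPM in control fibroblast-like cells. Thbs1 overlaps Gm29233, which had 0 UMIs in the fibroblast-like cells of either library. The symbols of the genes that overlap Tnc (8030451A03Rik) and Ctgf (Gm15270) were not in the count files.

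The fibroblasts of the 2 libraries mostly fell into different subclusters. Of 16 subclusters, 5 held at least 30 cells of each library, with 1392 IMQ and 3086 control cells. The largest subcluster of the IMQ library had 1396 IMQ and 7 control cells and was led by the acute-phase and antimicrobial genes Hp, Saa3, Lcn2 and Saa1. It held 85.7% of the Thbs1, 76.4% of the Prg4, 63.1% of the Postn and 48.5% of the Tnc UMIs of IMQ fibroblast-like cells, but 3.18% of the Thbs4 UMIs. In it Thbs1 had 737 CPM and Prg4 1459.6 CPM. The 534 IMQ fibroblasts with an acute-phase score of at least 0.3, a level no control fibroblast reached, were 14.4% of the IMQ class and held 43.7% of its Tnc, 32.7% of its Thbs1 and 30% of its Prg4 UMIs, against 7.71% of its Ctgf and 3.24% of its Thbs4 UMIs. Without these cells the same 7 genes were called higher and Sparc lower.

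Restricted to the 5 shared subclusters, a comparison chosen after seeing the data, 6 genes were called higher, where 14.4% of 13134 measured genes were, and none lower, where 7.16% were. Those called were Tnc, Postn, Thbs4, Ctgf, Mgp and Prg4. Tnc had 280 CPM in IMQ and 15.7 CPM in control cells of the shared subclusters, and Prg4 490 CPM in IMQ and 12.0 CPM in control cells. The other two calls were lost. Thbs1 had 148 CPM in IMQ and 92.5 CPM in control cells, a ratio of 1.61 (1.51 to 1.70), and Sparc 12379 CPM in IMQ and 15508 CPM in control cells, 1.25-fold lower (1.25 to 1.26). The libraries fill the 5 subclusters unevenly, so these sums differ from the values within them. Thbs1 was called in none of the 5: it was lower in the IMQ library in the subcluster led by Col8a1 (273 CPM in IMQ, 331 CPM in control) and in that led by Coch (217 CPM in IMQ, 280 CPM in control). The ratio of Prg4 was 40.8 (36.2 to 46.1) over the shared subclusters but 5.4 to 37.1 within them. The result over the shared subclusters depended on how finely the cells were clustered. At a resolution of 0.3, in 1396 IMQ and 2818 control cells, 7 genes including Thbs1 were called higher and none lower. The share of all measured genes called at that resolution was not computed. At a resolution of 1, in 1032 IMQ and 1421 control cells, Thbs1 was lower in the IMQ library with a log2 ratio of -0.61.

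Of the shared subclusters, the one led by Coch, Crabp1 and Fmod had the highest Tnc level in the IMQ library, 845 CPM in 280 IMQ cells and 38.8 CPM in 518 control cells, whereas in the control library the one led by Tagln and Acta2 had the highest, with 206 CPM in IMQ and 75.3 CPM in control cells. The Coch-led subcluster had 5 genes called higher (8.63% of measured genes), Tnc, Postn, Thbs4, Mgp and Prg4, and Sparc lower (3.27%). In the subcluster led by Cxcl14 and Gdf10, with 492 IMQ and 376 control cells, Tnc was at 1.41 CPM in IMQ and 0.769 CPM in control cells, a level that free RNA could give. Prg4 had 886 CPM in IMQ and 60.0 CPM in control cells of that subcluster, and with Ctgf and Mgp it made 3 genes called higher (9.69% of measured genes) against 1 lower (3.15%), Thbs4 with 11 IMQ and 12 control UMIs. In the subcluster led by Tagln and Acta2, 5 genes were called higher (12%) and none lower (3.15%), and Sparc had 8791 CPM in IMQ and 5892 CPM in control cells. In the subcluster led by Ptgs2, with 50 IMQ and 1666 control cells, Ctgf and Prg4 made 2 calls higher (3.91%) and none was lower (1.67%). In the subcluster led by Col8a1 and Cilp, 6 genes were called higher (3.47%) and none lower (3.06%), while Sparc was equal with 12339 CPM in IMQ and 12337 CPM in control cells. Prg4 was the only gene called higher in all 5 of these subclusters.

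Fibroblast subtypes, defined by marker lists without the 10 genes, differed in which genes they held, as the plot by subtype shows. Fibroblasts with markers Pi16 and Dpp4, known as adventitial or universal fibroblasts and here the largest subtype with 2283 IMQ and 3795 control cells, had 6 genes called higher (9.17% of measured genes) and Sparc lower (4.63%). Prg4 was at 1162 CPM in IMQ and 8.93 CPM in control cells of this subtype. Thbs1 had 495 CPM in IMQ and 81.3 CPM in control cells, and Postn, at 1026 CPM in IMQ and 533 CPM in control cells, was just under the 2-fold rule with a ratio of 1.92 (1.89 to 1.96). The subcluster led by Hp and Saa3 held 50.9% of the IMQ cells of this subtype, and the one led by Ptgs2 held 43.6% of its control cells.

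**Figure D2:**
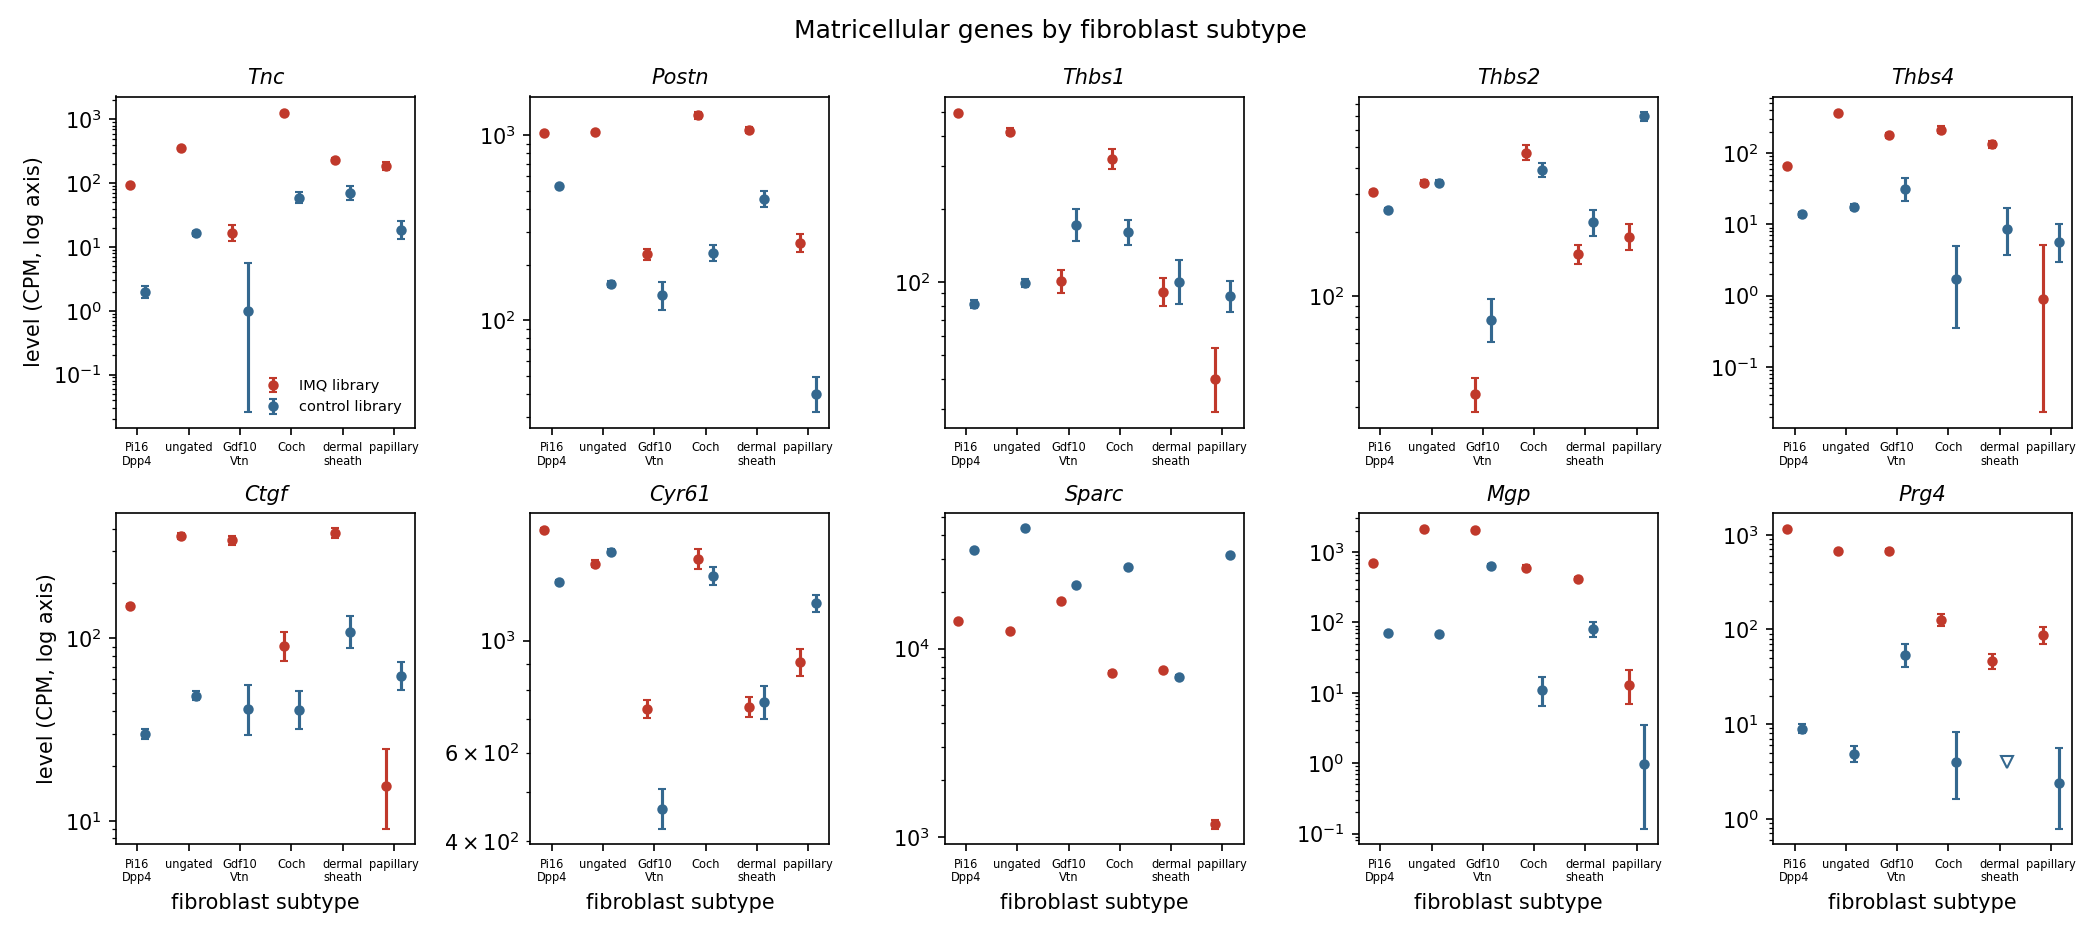
Level (CPM, log axis) of each gene in 6 groups of fibroblast-like cells, with the IMQ library on the left of each pair and exact 95% Poisson intervals. The open triangle is the upper limit for Prg4 in control dermal sheath cells, which had 0 UMIs. Tnc is higher in the IMQ library in every group, whereas Sparc ranges from near equal in dermal sheath cells, with 7713 CPM in IMQ and 7101 CPM in control cells, to 27.0-fold lower in papillary fibroblasts.

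Coch fibroblasts (141 IMQ and 203 control cells) had the highest Tnc level of the IMQ library among subtypes with at least 30 cells per library, 1271 CPM (1211 to 1332) in IMQ and 59.0 CPM (48.2 to 71.6) in control cells. Of these cells 30 in IMQ and 93 in control lay within 0.05 of the limits that define the subtype, and the subcluster led by Coch and Crabp1 held 87.9% of the IMQ and 49.3% of the control cells. They had 7 genes called higher (8.66% of measured genes) and Sparc lower (3.79%), with Mgp at 601 CPM in IMQ and 10.9 CPM in control cells. Thbs4 had 214 CPM in IMQ and 1.72 CPM in control Coch cells, but at 3000 UMIs per cell it was detected in 0.735% of IMQ and in none of the control cells, so very few cells carried it. In Gdf10 Vtn fibroblasts (322 IMQ and 226 control cells) 5 genes were called higher (8.7%) and Thbs2 lower (3.57%). Mgp was detected there in both libraries, at 2063 CPM in IMQ and 634 CPM in control cells. Thbs2 had 34.5 CPM in IMQ and 77.2 CPM in control cells of that subtype, 2.24-fold lower (1.65 to 3.02).

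Dermal sheath cells, named for the contractile layer around the hair follicle (182 IMQ and 117 control cells), had 6 genes called higher (10.1% of measured genes) and none lower (2.52%). Their marker list includes the contractile genes Acta2, Tagln and Mylk, and whether other contractile fibroblasts are among them was not tested. The subcluster led by Tagln and Acta2, with the cell cycle genes Ube2c and Top2a also among its leading genes, held 89% of the IMQ and 88% of the control cells. Tnc had 232 CPM in IMQ and 71.3 CPM in control dermal sheath cells, the highest in the control library among subtypes with at least 30 cells per library, Ctgf 377 CPM in IMQ and 109 CPM in control, while Thbs1 had 91.0 CPM in IMQ and 100 CPM in control. Prg4 had 114 UMIs in IMQ and 0 in control sheath cells, and against a floor of 3 counts in the control class it was at least 14.2-fold higher.

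Papillary fibroblasts, those of the upper dermis (42 IMQ and 220 control cells), differed from these: 3 genes were called higher (24.6% of measured genes) and 4 lower (9.37%). Sparc had 1162 CPM in IMQ and 31387 CPM in control papillary cells, 27.0-fold lower (25.6 to 28.6). Thbs2 had 190 CPM in IMQ and 698 CPM in control cells, and Ctgf 15.5 CPM in IMQ and 62.3 CPM in control cells. Tnc had 186 CPM in IMQ and 18.7 CPM in control papillary cells. The 2 libraries filled this subtype from different subclusters. One led by Prlr, Slc26a7 and Pappa2, with Crabp1, Trps1 and Inhba also among its leading genes, held 59.5% of IMQ cells. Another led by Igfbp2, Stc1 and Grem1 held 62.7% of control cells. Whether the IMQ and control cells of this subtype are the same cell type was not tested. Fibroblasts that fitted no subtype (706 IMQ and 2144 control cells) had 7 genes called higher (17.7%) and Sparc lower (4.04%). Fibroblasts with Cilp and Fmod were too few for a call, with 29 IMQ and 25 control cells, but had the highest Thbs4 level of the subtypes, 7026 CPM in IMQ and 3903 CPM in control cells.

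Promoter letters are shown for 4 genes. Thbs4 and Cyr61 were chosen because both hold the letters bound by TEAD factors and differ in their ratio. Postn and Tnc were chosen because their windows hold the letters TATAAA at different distances from the start. Promoter windows, which run from 250 bases before to 50 bases after the start, were found in RefSeq (GRCm38.p6) for 6 of the 10 genes, Tnc, Postn, Thbs2, Thbs4, Cyr61 and Sparc. Capitals mark the letters matched, written 5′ to 3′ on the gene's strand. The windows are Thbs4 at chr13:92794769-92795068 (minus strand), Cyr61 at chr3:145649936-145650235 (minus), Postn at chr3:54360857-54361156 (plus, the second of 2 starts) and Tnc at chr4:64046966-64047265 (minus, the first of 2 starts).
Thbs4: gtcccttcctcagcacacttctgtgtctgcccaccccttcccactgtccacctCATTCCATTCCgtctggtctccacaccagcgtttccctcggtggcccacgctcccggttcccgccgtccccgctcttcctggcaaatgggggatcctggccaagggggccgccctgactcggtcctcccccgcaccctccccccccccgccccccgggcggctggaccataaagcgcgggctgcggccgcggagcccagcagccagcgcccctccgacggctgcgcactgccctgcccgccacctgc
Cyr61: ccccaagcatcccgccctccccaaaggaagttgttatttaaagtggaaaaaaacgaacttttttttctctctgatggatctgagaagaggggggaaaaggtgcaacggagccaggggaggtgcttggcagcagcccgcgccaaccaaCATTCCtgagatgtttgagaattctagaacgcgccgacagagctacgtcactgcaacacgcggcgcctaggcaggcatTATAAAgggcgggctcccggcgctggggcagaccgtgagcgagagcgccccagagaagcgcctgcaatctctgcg
Postn: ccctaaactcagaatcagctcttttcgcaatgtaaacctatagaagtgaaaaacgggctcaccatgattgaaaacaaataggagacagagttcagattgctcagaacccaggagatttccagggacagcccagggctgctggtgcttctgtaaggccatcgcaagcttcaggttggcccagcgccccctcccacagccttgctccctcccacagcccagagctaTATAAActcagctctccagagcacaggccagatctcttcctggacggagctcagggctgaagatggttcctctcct
Tnc: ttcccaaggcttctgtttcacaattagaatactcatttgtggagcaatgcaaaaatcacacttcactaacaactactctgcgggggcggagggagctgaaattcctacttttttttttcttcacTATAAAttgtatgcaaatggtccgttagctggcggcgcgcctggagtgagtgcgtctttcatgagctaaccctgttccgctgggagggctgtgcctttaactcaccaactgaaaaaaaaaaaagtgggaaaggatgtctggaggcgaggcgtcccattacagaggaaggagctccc

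The letters GGAATG, bound by TEAD factors and searched on both strands, were found in 14.7% of all 32851 promoter windows of the same length. Thbs4 held 2 matches, both on the reverse strand, at -197 and -192 from the start and sharing 1 base, and Cyr61 held 1 at -103. TATAAA, the letters of a TATA box, was searched exactly and on the gene's strand and was in 8.32% of all windows. It lay at -25 in Cyr61 and at -26 in the Postn window shown. In Tnc it lay at -126 from the first start and -205 from the second, and whether it acts as a TATA box there was not tested. Thbs2 held an NF-kB match at -156 (4.51% of all windows), overlapping no other match. The letters TGANTCA, bound by AP-1 and searched on both strands, are in 7.81% of all windows and the CArG box of serum response factor in 1.63%, but neither was found in the windows of the 6 genes. Thbs4, with 2 TEAD matches, was called higher in fibroblast-like cells, and Cyr61, with 1, was near equal. The 2 genes were chosen for this difference, and a link between matches and ratio was not tested.

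Fibroblast-like cells held most UMIs of each of the 10 genes in both libraries, as the plot of lineage shares shows. In a library of whole skin, more cells of a type and more RNA per cell cannot be told apart in such shares. For Thbs4 fibroblasts held 98.8% of the IMQ and 95.9% of the control UMIs, and for Prg4 98.9% of the IMQ and 91.9% of the control UMIs. A few genes had a sizeable second source. Keratinocyte-like cells held 23.6% of the Postn UMIs in the IMQ and 8.23% in the control library, 22.0% of the Ctgf UMIs in IMQ and 6.92% in control, and 25.0% of the Thbs1 UMIs in IMQ and 24.1% in control. Pericyte and smooth muscle-like cells held 9.28% of the IMQ and 1.46% of the control Ctgf UMIs. Macrophage and monocyte-like cells held 5.17% of the IMQ Thbs1 UMIs.

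**Figure D3:**
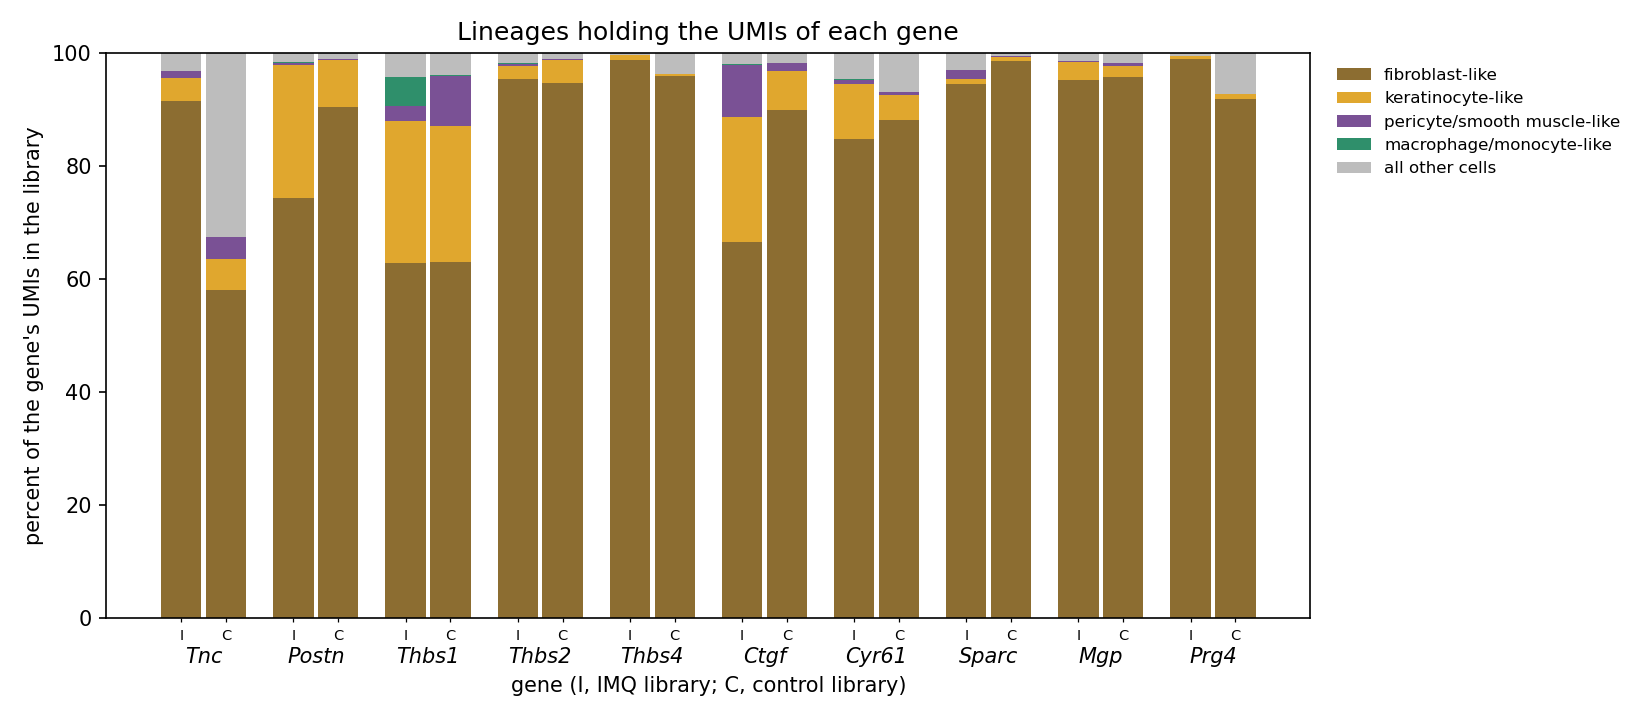
Percent of the UMIs of each gene held by each lineage in the IMQ library (I, left bar) and the control library (C, right bar). Fibroblast-like cells hold most UMIs of every gene; keratinocyte-like cells hold 23.6% of IMQ and 8.23% of control Postn UMIs, and the grey part of the control Tnc bar is mostly the 29.2% of UMIs in cells placed in no lineage.

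Levels from highest to lowest differed between genes among the lineages with at least 30 cells in each library. Cells placed in no lineage and lineages with fewer cells were left out of this order. Of the latter, the 17 red blood cell-like cells of the control library held 3.62% of its Thbs4 UMIs. In the IMQ library Sparc was highest in fibroblast-like cells, followed by Schwann-like cells with 5418 CPM, endothelial-like cells with 4779 CPM and pericyte-like cells with 4704 CPM, and the intervals of the last 2 overlapped. In the control library the order began with fibroblast-like cells and Schwann-like cells with 5700.1 CPM, and pericyte-like cells (1981 CPM) overlapped with melanocyte-like cells, where Sparc was at the level of free RNA. Thbs1 was highest in macrophage and monocyte-like cells of the IMQ library with 835 CPM, and fibroblast-like (419 CPM) and pericyte-like cells (400 CPM) came next with overlapping intervals. In the control library pericyte-like cells led with 337 CPM. Ctgf was highest in pericyte-like cells of the IMQ library, above fibroblast-like cells, and in the control library lymphatic endothelial-like (61.3 CPM) and fibroblast-like cells (41.4 CPM) led with overlapping intervals. Mgp was highest in IMQ fibroblast-like cells, whereas endothelial-like cells led in the control library. Thbs2, Cyr61, Postn, Thbs4 and Prg4 were highest in fibroblast-like cells of both libraries, and only for Prg4 in the control library did the interval of the next lineage overlap. In the IMQ library Tnc was highest in fibroblast-like cells, above pericyte-like (48.3 CPM) and Schwann-like cells (37.6 CPM), whose intervals overlapped. In the control library Schwann-like cells led Tnc with 50.8 CPM, and pericyte-like cells (18 CPM) overlapped with the next lineages, fibroblast-like cells with 10.3 CPM among them.

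**Figure D4:**
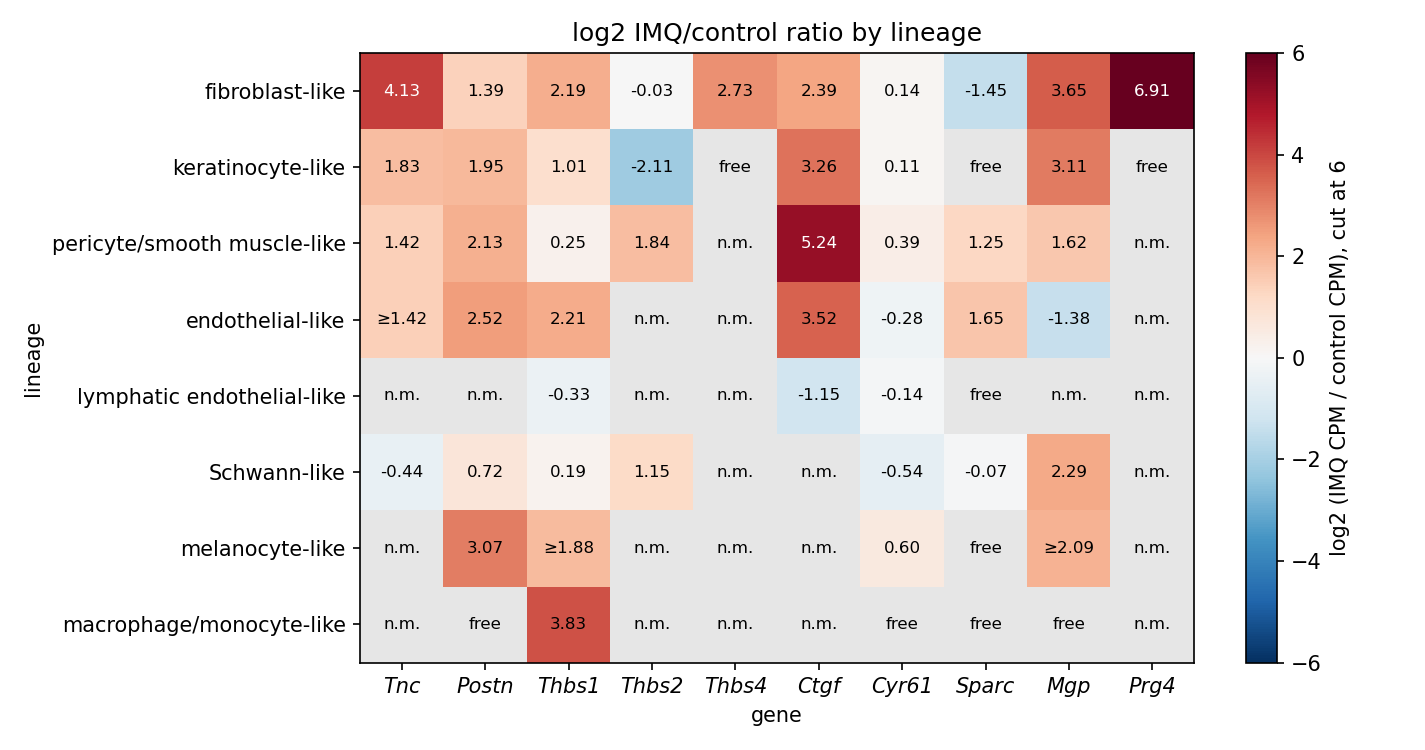
log2 IMQ/control ratio of each gene in 8 lineages with at least 30 cells in each library, with red for higher and blue for lower in the IMQ library. Grey fields are genes with under 20 UMIs (n.m.) or at a level free RNA could give (free), and ≥ marks a lower bound against a control count of 0. Ctgf is positive in 4 lineages and -1.15 in lymphatic endothelial-like cells, and Sparc is -1.45 in fibroblast-like but 1.25 in pericyte/smooth muscle-like and 1.65 in endothelial-like cells.

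In keratinocyte-like cells (2126 IMQ and 1590 control) 7 genes were called higher, where 11.7% of 14206 measured genes were, and 2 lower, where 11% were. Of these calls Tnc, Postn, Thbs1, Ctgf, Mgp and Thbs2 were above what free RNA could give, and Thbs4, Prg4 and Sparc were not. Postn had 251 CPM (247 to 254) in IMQ and 64.8 CPM (62.2 to 67.5) in control keratinocytes, Ctgf 57.1 CPM in IMQ and 5.98 CPM in control, and Mgp 27.0 CPM in IMQ and 3.13 CPM in control. Most of these UMIs came from basal and follicle cells. There Postn had 354 CPM in 1462 IMQ cells and 147 CPM in 680 control cells, and Ctgf 81.6 CPM in IMQ and 14.4 CPM in control cells, while in suprabasal cells both were within reach of free RNA. In basal and follicle cells 5 genes were called higher (7.82%) and 2 lower (9.03%), and in suprabasal cells 5 higher (8.68%) and 2 lower (14%). Thbs1 missed the rule in basal and follicle cells, with 184 CPM in IMQ and 138 CPM in control. Its 2.01-fold difference over all keratinocytes was larger than within either layer. The Thbs1 call over all keratinocytes was lost with median-of-ratios scaling, at 5% mitochondrial UMIs and with free RNA subtracted. Thbs2 had 7.14 CPM in IMQ and 52.8 CPM in control basal and follicle cells, 7.40-fold lower (6.49 to 8.46). The 7 fibroblast markers summed to 318 CPM in IMQ and 1914 CPM in control keratinocyte-like cells, none of them at 0, and their part in the Thbs2 result was not tested. The libraries also filled different clusters of this lineage: 4 clusters held 135 to 501 control cells and at most 2 IMQ cells each, and 4 others held 300 to 765 IMQ cells and 3 to 64 control cells each. The 7 neutrophil markers, of which S100a8 and S100a9 are also made by inflamed keratinocytes, summed to 5569 CPM in IMQ and 44.1 CPM in control keratinocytes, none of them at 0, and their part was not tested.

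Pericyte and smooth muscle-like cells, which wrap vessels (211 IMQ and 321 control), had 6 genes called higher (8.03% of measured genes) and none lower (6.9%). Ctgf had 664 CPM (632 to 697) in IMQ and 17.6 CPM (12.8 to 23.6) in control cells, a ratio of 37.7 (28.0 to 51.9). Sparc had 4704 CPM (4618 to 4792) in IMQ and 1981 CPM (1927 to 2036) in control cells, 2.37-fold higher (2.30 to 2.46). Postn had 116 CPM in IMQ and 26.6 CPM in control cells, Thbs2 26.6 CPM in IMQ and 7.44 CPM in control, and Tnc 48.3 CPM in IMQ and 18.0 CPM in control. The Tnc call was lost with each cell weighted equally and in thinned cells, and that of Mgp (42.0 CPM in IMQ, 13.7 CPM in control) in thinned cells and without the cell with the most UMIs in each library. Thbs1 was high in both, with 400 CPM in IMQ and 337 CPM in control cells. Most of the IMQ Ctgf UMIs, 1438 of 1595, came from 1 subcluster of 94 IMQ and 3 control cells with 1219.8 CPM in IMQ, led by Ccl21a, Timp4 and P2rx1. Ccl21a, a chemokine gene known from lymphatic endothelium, is the symbol of 2 genes of the count files, and the lymphatic marker list read the other one, which was at 0 in both libraries. The 7 lymphatic endothelial markers summed to 27.5 CPM in IMQ and 11 CPM in control pericyte-like cells, with Mmrn1 also at 0 in the control, and their part was not tested. In the only subcluster with at least 30 cells of each library, led by Igfbp2, Grem1 and Gja1, Ctgf had 8 UMIs in 33 IMQ cells and 11 UMIs in 71 control cells, and Sparc 1517 CPM in IMQ and 1891 CPM in control. Thbs2 was called higher there, with 14 UMIs in IMQ and 9 in control cells, and Postn lower, with 0 UMIs in IMQ and 21 in control cells. The share of all measured genes called in that subcluster was not computed, so these calls cannot be set against it. A smaller subcluster led by Cxcl9, of 43 IMQ and 15 control cells, had 84 Ctgf UMIs in IMQ and 1 in control cells and Sparc at 7384 CPM in IMQ and 4093 CPM in control cells. The 7 endothelial markers summed to 390 CPM in IMQ and 88.8 CPM in control pericyte-like cells, with Cdh5, Egfl7 and Emcn at 0 in the control, and their part was not tested.

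Endothelial-like cells (147 IMQ and 44 control) had 5 genes called higher (11.5% of measured genes) and Mgp lower (7.1%). Sparc, which endothelial cells make at sites of vessel growth, had 4779 CPM (4696 to 4864) in IMQ and 1519.5 CPM (1394 to 1653) in control cells, 3.15-fold higher (2.89 to 3.43). Thbs1 had 104 CPM in IMQ and 22.4 CPM in control cells, Ctgf 64.2 CPM in IMQ and 5.60 CPM in control, and Postn 48.1 CPM in IMQ and 8.40 CPM in control, with 8, 2 and 3 control UMIs behind them. Tnc had 59 UMIs in IMQ and 0 in control cells and was at least 2.69-fold higher against a floor of 3 counts. The Tnc call was lost in thinned cells and without the cell with the most Tnc UMIs, and the Postn call in thinned cells. Mgp had 77.6 CPM (67.3 to 89.0) in IMQ and 201 CPM (158 to 254) in control endothelial-like cells, 2.60-fold lower (1.96 to 3.42). All of the IMQ and 98.6% of the control Mgp UMIs came from the tenth of cells with the most, and 6.02% of IMQ and 5.26% of control cells had an Mgp UMI at 3000 UMIs per cell. The 7 basal keratinocyte markers summed to 372 CPM in IMQ and 95.1 CPM in control endothelial-like cells, with Trp63 at 0 in the control, and the 7 fibroblast markers to 583 CPM in IMQ and 954 CPM in control, with Pdgfra at 0 in the control. The 7 neutrophil markers summed to 76.4 CPM in IMQ and 2.8 CPM in control endothelial-like cells, with 6 of them at 0 in the control. The part of these cell types was not tested.

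Lymphatic endothelial-like cells (114 IMQ and 34 control) had no gene called higher (4.06% of measured genes) and Ctgf lower (2.23%). Ctgf had 27.6 CPM (18.9 to 39.0) in IMQ and 61.3 CPM (35.7 to 98.2) in control cells, from 32 and 17 UMIs, and the call was lost when the cell with the most Ctgf UMIs in each library was left out, with Leiden clusters, with each cell weighted equally and in thinned cells. Cyr61 was high in both, with 699 CPM in IMQ and 772 CPM in control cells. Schwann-like cells, the glia of skin nerves (174 IMQ and 161 control), had Thbs2 and Mgp called higher (3.36%) and none lower (2.24%). Thbs2 had 75.1 CPM in IMQ and 33.9 CPM in control cells and Mgp 64.6 CPM in IMQ and 13.2 CPM in control, whereas Sparc was near equal with 5418 CPM in IMQ and 5700.1 CPM in control. When cells were reduced to 3000 UMIs neither call remained, and that of Thbs2 was also lost at 5% mitochondrial UMIs, with Leiden clusters and with each cell weighted equally. The 7 fibroblast markers summed to 2136 CPM in IMQ and 3384 CPM in control Schwann-like cells, with a median of 337 CPM in IMQ and 128 CPM in control and none at 0. The 8 macrophage markers summed to 562 CPM in IMQ and 173 CPM in control cells, with C1qb, Adgre1, Ms4a7 and Fcgr1 at 0 in both and C1qa at 0 in IMQ. The part of these cell types was not tested. In melanocyte-like cells (38 IMQ and 37 control) Postn, Thbs1 and Mgp were called higher (5.65%) and Sparc, at a free RNA level, lower (6.41%). Depth differed there, with a median per cell of 8051 UMIs in IMQ and 1793 in control. Postn had 76 UMIs in IMQ and 2 in control melanocyte-like cells, Thbs1 50 and 0, and Mgp 58 and 0. The 7 basal and follicle keratinocyte markers summed to 3971 CPM in IMQ and 494 CPM in control melanocyte-like cells, and the 7 fibroblast markers to 142 CPM in IMQ and 6098 CPM in control, with none of either list at 0. The part of these cell types was not tested.

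Macrophage and monocyte-like cells (337 IMQ and 70 control) had Thbs1 called higher (6.34% of measured genes) and Sparc, at a free RNA level, lower (10.6%). With free RNA subtracted, Sparc was called higher in place of lower. Thbs1, which monocytes make on activation, had 835 CPM (797 to 874) in IMQ and 58.9 CPM (36.0 to 90.9) in control cells, a ratio of 14.2 (9.15 to 23.3). At 3000 UMIs per cell 45.2% of IMQ and 9.80% of control cells had a UMI. A subcluster of 158 IMQ and 6 control cells, led by the monocyte genes Ly6c2, Vcan, Hp and Chil3, had the highest level with 1694 CPM, and the 18 IMQ cells led by Arg1 and Cxcl3 had 665 CPM. In the one subcluster with at least 20 cells of each library (112 IMQ and 27 control cells, led by Slc13a3 and Cd72) Thbs1 had 137 UMIs and 148 CPM in IMQ and 1 UMI and 7.73 CPM in control cells. The 36 control cells led by Fcna, Retnla and Lyve1 had 0 Thbs1 UMIs, with an interval that reaches 21.9 CPM. The 7 neutrophil markers summed to 1021 CPM in IMQ and 218 CPM in control macrophage-like cells, with S100a8, S100a9, Retnlg and Cxcr2 at 0 in the control, and their part was not tested. Neutrophil-like cells had 248 CPM of Thbs1 in 286 IMQ cells and 1228 CPM in 6 control cells, too few for a comparison. In dendritic, T cell and natural killer-like cells the only calls were Sparc, and in the first 2 also Cyr61, lower and at free RNA levels, with 2 of 2 measured genes called lower in dendritic (4.27%) and T cell-like (6.85%) and 1 of 1 in natural killer-like cells (7.69%), and none higher (7.59%, 7.49% and 11.7%).

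Other genes of these pathways were counted in fibroblast-like cells from lists drawn up for this work, beside the 12.7% higher and 4.03% lower of all measured genes. Of 21 other matricellular genes 17 were measured, 6 were called higher and 2 lower. Their median log2 ratio was 0.59, against 0.29 over all genes. Osteopontin (Spp1), a cytokine-like matrix protein, had 33.2 CPM in IMQ and 3.58 CPM in control cells, 9.27-fold higher (8.10 to 10.7), and the proteoglycan gene Spock1 was 5.96-fold higher (4.16 to 8.75) at 3.29 CPM in IMQ and 0.551 CPM in control. Tgfbi, a collagen-binding protein induced by TGF-beta, had 211 CPM in IMQ and 855 CPM in control cells, 4.05-fold lower (3.97 to 4.13), and Spock3 was 3.61-fold lower (2.39 to 5.65) at 0.532 CPM in IMQ and 1.92 CPM in control. Of 20 measured YAP and TEAD target genes other than the CCN genes, 3 were called higher and 1 lower. Their median log2 ratio was 0.15. Ankrd1 was 38.3-fold higher (10.1 to 323) but at 1.14 CPM in IMQ and 0.0298 CPM in control cells. F3, which encodes tissue factor and is also a marker of Gdf10 Vtn fibroblasts, was 4.16-fold higher (3.95 to 4.38), and Nt5e was 3.99-fold lower (3.69 to 4.32). Crim1, with the second lowest ratio of the list, had 17.7 CPM in IMQ and 34.0 CPM in control cells.

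Among 22 receptors of matricellular proteins 2 were called higher and none lower, with a median log2 ratio of 0.17. The integrin gene Itgb8 had 1.48 CPM in IMQ and 0.224 CPM in control cells, 6.63-fold higher (3.79 to 12.4), and the thrombospondin receptor gene Cd36 had 1.77 CPM in IMQ and 0.775 CPM in control cells. The lowest ratios were those of Itgb6, with 0.190 CPM in IMQ and 0.313 CPM in control cells, and Tlr2, with 6.60 CPM in IMQ and 10.4 CPM in control cells. Of 18 immediate early and stress genes, which dissociation of tissue is known to induce, as it can Cyr61, none was called higher or lower, and their median log2 ratio was 0.20. The extremes were Socs3, 1.91-fold higher (1.88 to 1.94), and Ier2, 1.90-fold higher (1.88 to 1.93), against Hspa1b with a ratio of 0.633 (0.628 to 0.638) and Klf4 with 0.701 (0.694 to 0.708).

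The genes most like each member were ranked by Pearson's r of log2(CPM + 1) over 37 classes (lineages and fibroblast subtypes of both libraries) among 10879 genes. These classes share libraries and overlap in cells, so r is a description. Sparc was closest to the collagen gene Col5a2 (0.952) and to Meg3 (0.945), and Thbs2 to the collagen gene Col5a1 (0.914) and to Antxr1 (0.911). Cyr61 was closest to Npdc1 (0.938) and Rbms3 (0.936). Mgp was closest to the chemokine gene Cxcl12 (0.890) and the collagen gene Col8a1 (0.837). Tnc was closest to the matrix metalloproteinase gene Mmp11 (0.869) and to Samd14 (0.822). For Ctgf the elastin gene Eln had an r of 0.852. Thbs4 was closest to the fibrillin gene Fbn2 (0.846) and to Dpep1 (0.837), and Postn to Gpr161 (0.868) and Efs (0.864). Prg4 was closest to Gldc (0.861) and Adamtsl2 (0.858), and Thbs1 to Fam20c (0.820) and Tcta (0.775).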

How the data were processed

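Raw UMI counts per gene and barcode of 2 libraries of dorsal skin, 1 IMQ and 1 control, were used as deposited by the authors. They are whole-number counts with no normalization. Per the file headers, version 5.0.0 of Cell Ranger made the matrices. The tools listed per the submitters' processing notes are Seurat 2.0 and Cell Ranger 3.0.2, with the build mm10. The gene annotation is not given in the sources used here. Every listed barcode had at least 500 UMIs.

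The IMQ library had 144054978 UMIs in 9414 barcodes and the control library 123088680 in 10857. Cells with at least 200 genes and at most 10% mitochondrial UMIs were kept (8499 IMQ and 10297 control), and Scrublet in scanpy 1.11.5 then removed 113 IMQ (1.33%, against 6.80% expected) and 420 control doublets (4.08%, against 8.24% expected), so doublets may remain. Per-cell scores of 19 lineage and 7 fibroblast subtype marker lists gave the classes, at a minimum score of 0.2 for lineages and 0.15 for subtypes and a gap of 0.05 to the next list. Of 123 markers 2 were not found. Subclusters came from Leiden clustering of 2000 variable genes without the 10 members (30 components, 15 neighbours, resolution 0.5), with no integration of the libraries. UMIs were summed per class and library. CPM have exact Poisson, shares exact Clopper-Pearson and ratios exact conditional binomial intervals at 95%. A count of 0 was set to a floor of 3 counts per class and library in ratios. Free RNA was estimated as the median, over markers of other lineages, of the level in the class over that in the whole library, and a level counted as above it at 3 times the estimate in the higher library. Thinning drew 3000 UMIs from each cell without replacement. A score is the mean over markers of the log level per cell, each scaled to its value in the highest cells, and acute-phase scores used Saa1, Saa2, Saa3, Lcn2 and Hp.

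Gene positions are from GENCODE M21 on GRCm38. The members and lists were chosen with earlier results of these data known. The text names all members, for each the 2 genes most like it (for Ctgf 1 of them is not reported here), and of each list the 2 highest and 2 lowest ratios; the overlapping genes and the genes leading subclusters were chosen after their values were seen. Counts were also simulated for fibroblast-like cells with counting error only, with 100 genes raised and 100 lowered 4-fold among 14573. All of the changed genes were called, and 57 of 14373 unchanged genes were. The simulation held no spread between cells, animals or libraries, so it gives no rate of false calls for these data. In all, 12 alternative settings were chosen at the outset and 4 after seeing the data.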

Additional observations from a re-analysis of the deposited data

Results flagged for a closer look

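Some genes were called in opposite directions in different lineages, each on the log2 scale of IMQ over control, and none of these differences between lineages was tested. Sparc was -1.45 in fibroblast-like cells but 1.25 in pericyte/smooth muscle-like and 1.65 in endothelial-like cells. Mgp was -1.38 in endothelial-like cells, where few cells held it, and 3.65 in fibroblast-like, 3.11 in keratinocyte-like, 1.62 in pericyte/smooth muscle-like, 2.29 in Schwann-like and at least 2.09 in melanocyte-like cells. Ctgf was -1.15 in lymphatic endothelial-like cells and 2.39 in fibroblast-like, 3.26 in keratinocyte-like, 5.24 in pericyte/smooth muscle-like and 3.52 in endothelial-like cells. The lymphatic call was lost without the highest cell, with Leiden clusters, with equal cells and in thinned cells. Thbs2 was -2.11 in keratinocyte-like cells, against 1.84 in pericyte/smooth muscle-like and 1.15 in Schwann-like cells. The fibroblast markers summed to 318 CPM in IMQ and 1914 CPM in control keratinocyte-like cells, and their part was not tested. The Schwann-like call was lost at 5% mitochondrial UMIs, with Leiden clusters, with equal cells and in thinned cells. Within the pericyte subcluster that both libraries shared, Sparc had 1517 CPM in IMQ and 1891 CPM in control cells.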

How the results depend on the processing

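In fibroblast-like cells the same 7 genes were called higher and Sparc lower under the 12 settings chosen at the outset and without the cells of high acute-phase score. Of 292 counts under alternatives, 245 were within 1.5 times the value reported. Over all alternatives the log2 ratio in fibroblast-like cells lay between 2.25 and 4.42 for Tnc, 1.03 and 1.85 for Postn, 2.08 and 3.61 for Thbs4, 1.40 and 2.60 for Ctgf, 2.06 and 3.76 for Mgp, 4.90 and 6.96 for Prg4, -1.74 and -0.15 for Sparc, -1.49 and 0.05 for Thbs2, -0.42 and 0.61 for Cyr61, and -0.61 and 2.26 for Thbs1. Thbs1 was reversed, at -0.61, in the shared subclusters at resolution 1, where Thbs2 was the gene called lower, and the cause was not tested.

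Counts of members that moved by over 1.5 times were these, and the cause was not tested. Apart from the shared subclusters at resolution 0.5, the share of all measured genes called was not computed under these settings. In fibroblast-like cells 0 were lower in the shared subclusters at resolutions 0.5 and 0.3. In keratinocyte-like cells 4 were higher with free RNA subtracted. In endothelial-like cells 3 were higher in thinned cells. In lymphatic endothelial-like cells 1, Sparc, was higher with free RNA subtracted, and 2 were lower with Leiden clusters and 0 without the highest cell. In Schwann-like cells 1 was higher at 5% mitochondrial UMIs, with Leiden clusters and with each cell weighted equally, and 0 in thinned cells. In macrophage/monocyte-like cells 2 were higher with median-of-ratios scaling and with free RNA subtracted and 3 with Leiden clusters, and 2 were lower with no minimum of UMIs and 0 with Leiden clusters or free RNA subtracted. The Sparc call of these cells changed direction, from lower to higher, with free RNA subtracted.

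Counts in the lists of fibroblast-like cells moved as follows. Apart from the shared subclusters at resolution 0.5, the share of all measured genes called was not computed under these settings. Counts at the 1.5-fold threshold therefore cannot be set against the shares of the 2-fold rule. Receptors called higher were 1 with median-of-ratios scaling, Leiden clusters, equal cells, thinned cells, subtypes weighted equally, the shared subclusters at resolution 1 and without high acute-phase scores. Receptors called lower were 1 with Leiden clusters, equal cells and a 1.5-fold threshold, 4 in the shared subclusters at resolution 0.5 and 3 at 0.3. YAP/TEAD targets called lower were 3 with median-of-ratios scaling and 3 at a 1.5-fold threshold (6 were higher at that threshold), and 5, 5 and 2 in the shared subclusters at resolutions 0.5, 0.3 and 1. Stress genes called higher were 1 with equal cells, thinned cells and free RNA subtracted and 5 at 1.5-fold, and lower were 1 at 1.5-fold and 1, 1 and 2 in the shared subclusters at 0.5, 0.3 and 1. Other matricellular genes called lower were 1 in the shared subclusters at each resolution, and 1 was higher at resolution 1.

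No paired analysis was possible because each group had 1 library. The shared-subcluster and acute-phase alternatives were chosen after seeing the data. Depth limits genes with few UMIs, and endothelial-like, lymphatic endothelial-like and melanocyte-like cells rest on under 50 control cells.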
